A study of Mus musculus with 4 samples.

Results

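Potassium channel genes were followed in whole-cortex RNA from mouse embryos, as the protein-coding genes listed in both deposited tables whose symbol begins with Kcn. There were 83 of them among 19968 genes listed in both tables. A further 4 (Kcne1, Kcnk7, Kcnmb1 and Kcnv2) were listed with 1 knockout library alone, at 1 to 7 counts in that library and 1 to 4 in the control, and were left out. RNA came from brain of C57BL/6 embryos at embryonic day 15, and the extraction notes name cerebral cortex as the dissected piece. The series' title places the work in how neurons and blood vessels communicate while the brain's vessels grow. The groups were a conditional Prdm16 knockout (genotype Prdm16cKO, called cKO) and mice with floxed Prdm16 alleles (Prdm16fl/fl, called floxed). The labels give neither the Cre driver, and so the cells in which the gene was deleted, nor the deleted exon, and do not say whether embryos were pooled. The design text speaks of triplicates, but the labels used here list 2 samples per group, of which 1 in each group has the word Blood in its title, unexplained. The tables held 2 cKO libraries, cKO 1 and cKO 2, and 1 floxed library, and which sample each came from is not shown by the column names.

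Potassium channels are membrane pores that let potassium leave or enter cells and so set the resting potential and end the action potential. Voltage-gated channels (Kv, KCNQ and EAG families) and calcium-activated channels shape firing in neurons. Inward rectifiers (Kir) and 2-pore-domain channels hold the resting potential in neurons, glia, vessel walls and epithelia, and auxiliary subunits alter the trafficking and gating of the pores. Prdm16, the gene targeted in this study, encodes a zinc-finger transcriptional regulator expressed in cortical radial glia.

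The library total of cKO 1 was 19518174 counts, that of cKO 2 18581791 and that of floxed 17841685, and levels are given as CPM, the count scaled to a library of 1000000 counts. A count of 0 would allow up to 0.154, 0.161 and 0.168 CPM (3 counts). Prdm16 had 34.6 CPM in cKO 1, 24.1 in cKO 2 and 30.2 in floxed, so the library labelled cKO 1 was not lower than the control, and the summed reads check the labels only in part because the deleted exon is not given. Cortical neuron markers (6 of 6 listed, Bcl11b, Tbr1 and Neurod6 among them) summed to 2186, 2020 and 2048 CPM, and all 6 were detected in each library. The cKO libraries differed from each other in markers of the brain's coverings: 10 meningeal and fibroblast markers summed to 762 CPM in cKO 1, 25.5 in cKO 2 and 475 in floxed. Each ratio of 2 libraries carries its 95% interval in brackets (exact, Clopper-Pearson), and "beyond counting error" means that this interval left out 1. Without molecular identifiers in the reads, the intervals cover counting error only. Every floxed level is that of 1 library, both comparisons with it share that library, and directions refer to libraries as labelled.

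The members together took 0.131% of the cKO 1 library, 0.134% of cKO 2 and 0.138% of floxed. The 12 most abundant members held 59.8%, 60.2% and 59.5% of the members' summed CPM. At the other end, 17 members averaged under 1 CPM, and 34 averaged at least 10 CPM.

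Between genes, levels can be compared only per length, here as CPM per kilobase of merged exons in GENCODE M21. On that scale Kcnj11, the pore of the ATP-sensitive channel of neurons and endocrine cells, was highest at 18.9 in cKO 1, 19.6 in cKO 2 and 16.7 in floxed. Next came Kcnip3, a calcium-sensing partner of Kv4 channels, at 16.1, 19.1 and 15.9. Kcnip3 in cKO 2 lay above Kcnj11 in floxed, so the levels of these neighbours overlap across libraries. Kcne1l, a beta subunit of the KCNE family, followed at 9.96, 10.6 and 11.8, ahead of Kcng1, a silent subunit that modifies Kv2 channels, at 9.05, 10.04 and 9.11. Kcne2 stood at 12.8 in cKO 1 and 13.2 in floxed but at 3.56 in cKO 2. Ranks 11 to 20 all had means between 5.16 and 5.58 per kilobase, and libraries overlap between neighbours there. The exons of 7 members overlap another gene's exons by over 10% of their length, among them Kcna6 (39.6%, antisense to Gm26673), Kcnj3 (31.1%, antisense to Gm26794) and Kcnj13 (49.1%, antisense to Gigyf2). The library kit does not mark strand, so reads in the shared parts cannot be assigned and these levels are uncertain.

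**Figure D1:**
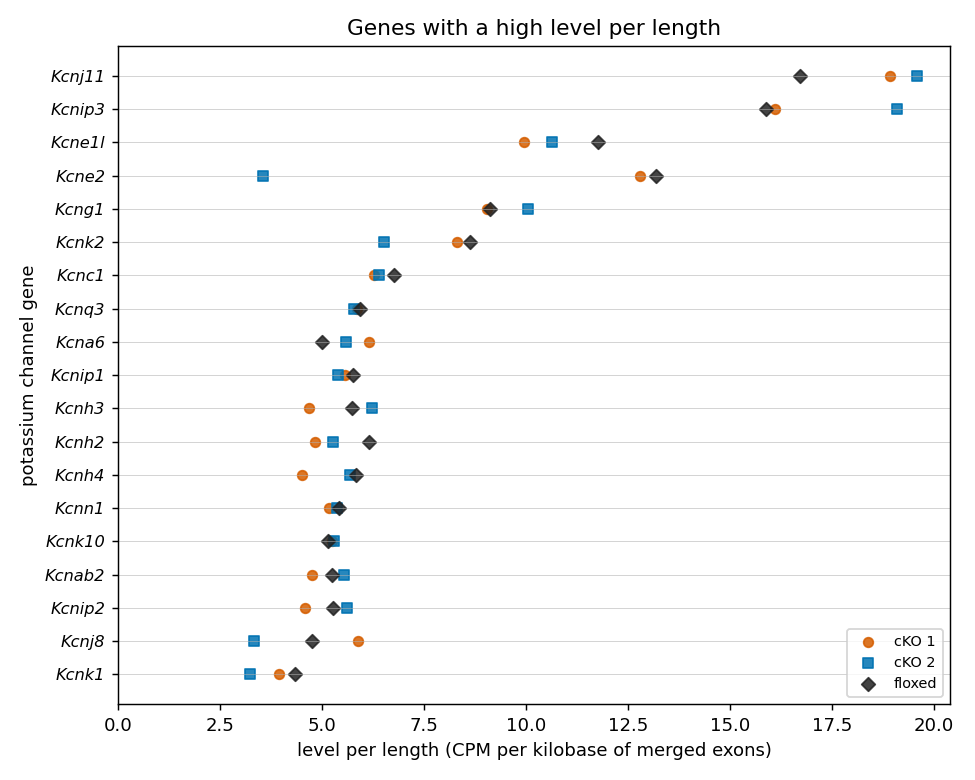
Level per length (CPM per kilobase of merged exons, linear axis from 0) of 19 potassium channel genes from the upper end of the range in cKO 1, cKO 2 and floxed, with 1 point for each library. Kcne2 stands out at 3.56 in cKO 2 against 12.8 and 13.2 in the other libraries.

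Promoter sequences from RefSeq (GRCm38.p6) were matched by symbol to 60 of the 83 members, with 1 promoter kept for each, the one nearest the start of the gene in the tables. The window runs from 250 bases before to 50 bases after the start. Letters are lower case with every CG pair in capitals, since CG-rich promoters are typical of broadly used and many neuronal genes. Shown are Kcne2 (chr16:92292139-92292438, plus strand) and Kcnj8 (chr6:142571565-142571864, minus strand), the choroid plexus and vascular members with the most counts. Beside them stand Kcna4 (chr2:107290339-107290638, plus strand) and Kcnh8 (chr17:52602459-52602758, plus strand), the channel pores with the largest higher and lower fitted folds among the 10 smallest p-values.
Kcne2: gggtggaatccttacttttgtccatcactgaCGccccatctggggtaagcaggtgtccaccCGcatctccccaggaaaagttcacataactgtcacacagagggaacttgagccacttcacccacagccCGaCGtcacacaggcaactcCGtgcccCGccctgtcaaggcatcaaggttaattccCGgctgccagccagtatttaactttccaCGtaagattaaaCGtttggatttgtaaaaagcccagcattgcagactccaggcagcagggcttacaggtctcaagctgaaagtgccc
Kcnj8: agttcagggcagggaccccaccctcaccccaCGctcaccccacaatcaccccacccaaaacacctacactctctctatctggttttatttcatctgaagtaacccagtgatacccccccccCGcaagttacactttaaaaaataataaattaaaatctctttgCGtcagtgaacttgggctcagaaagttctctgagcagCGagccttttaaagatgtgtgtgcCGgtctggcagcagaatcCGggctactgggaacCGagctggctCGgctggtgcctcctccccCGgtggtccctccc
Kcna4: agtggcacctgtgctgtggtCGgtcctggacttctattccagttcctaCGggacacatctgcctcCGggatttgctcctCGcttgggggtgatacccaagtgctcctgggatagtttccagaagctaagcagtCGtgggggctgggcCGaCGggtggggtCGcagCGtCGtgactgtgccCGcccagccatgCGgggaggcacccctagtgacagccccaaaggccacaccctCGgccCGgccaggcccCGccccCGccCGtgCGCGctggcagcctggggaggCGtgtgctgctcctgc
Kcnh8: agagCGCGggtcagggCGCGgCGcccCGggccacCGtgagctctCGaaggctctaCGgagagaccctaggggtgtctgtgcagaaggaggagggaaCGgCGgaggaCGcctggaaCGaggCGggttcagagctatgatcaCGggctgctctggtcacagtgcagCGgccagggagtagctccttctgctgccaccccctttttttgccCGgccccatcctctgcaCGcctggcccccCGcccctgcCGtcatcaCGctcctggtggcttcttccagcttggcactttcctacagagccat

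Kcne2 and Kcnj8 hold 9 CG pairs each, and 45.8% of all 32851 promoters in the table hold at least as many. Kcna4 holds 20 and Kcnh8 holds 21, reached by 26.5% and 24.8% of all promoters. The median was 11.5 over the 60 members and 7 over all promoters, and by role it was 17.5 in 30 neuronal members, 9 in 4 vascular members and 7 in 2 choroid plexus members. The letters TATAAA, on either strand, were found in 5 of 85 member promoters (5.88%) and in 13.6% of all promoters, and in none of the 4 shown.

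The comparison of the groups asked whether any channel gene differed between cKO and floxed beyond the spread of the cKO libraries. No member did. Of 83 members 75 passed the expression filter, and edgeR's quasi-likelihood test called 0 of them at a Benjamini-Hochberg adjusted p under 0.05, as it called 0 of all 16725 genes tested (0%). At an unadjusted p under 0.05 it found 0 members, beside 217 of all genes (1.3%). DESeq2 and limma-voom also called 0 members, and DESeq2 called 5 other genes. The smallest adjusted p of a member was 1 in edgeR. The test has 1 residual degree of freedom and takes its spread from the cKO libraries alone, so the absence of calls does not show that the groups were alike.

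The median log2 ratio over the 83 members was -0.07 in cKO 1 over floxed and -0.03 in cKO 2 over floxed, beside 0.01 and -0.06 over all genes. Against floxed, cKO 1 had 7 members higher beyond counting error (15% of all genes were) and 13 lower (14% of all genes). In cKO 2, 8 members were higher (13.5% of all genes) and 21 lower (21.1% of all genes). These shares were not tested against the background, and nothing particular to the members is read from them. Between the cKO libraries, cKO 2 had 11 members higher than cKO 1 (14.3% of all genes) and 11 lower (23.3% of all genes). In all 3 comparisons 41 members stayed within counting error, with mean levels from 0.0708 to 86.2 CPM. The matching share of all genes was not computed, and members of few counts, such as Kcnj16 (2, 3 and 6), have wide intervals. Nothing particular to the members is read from this number.

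**Figure D2:**
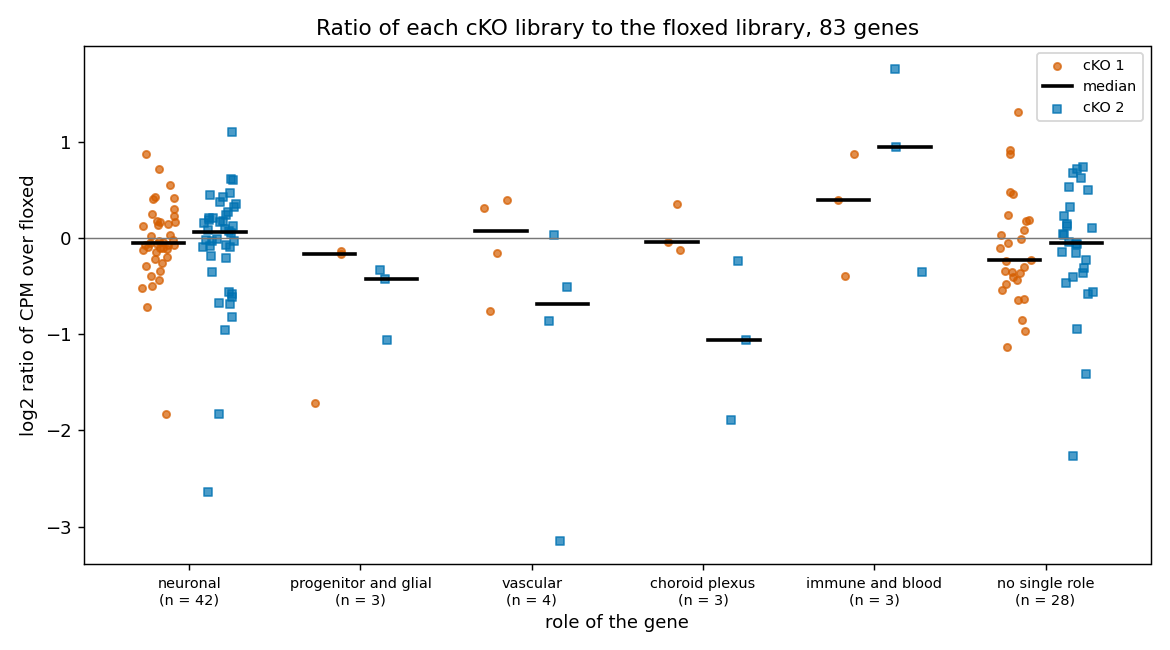
Log2 ratio of CPM over floxed for each of the 83 genes, by role, in cKO 1 (circles) and cKO 2 (squares), with black bars at the medians. Neuronal genes centre near 0 in both libraries (medians -0.06 and 0.06), while vascular genes have medians of 0.07 and -0.69 and choroid plexus genes of -0.05 and -1.06.

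Neuronal members were the largest class, 42 genes, and their median log2 ratio over floxed was -0.06 in cKO 1 and 0.06 in cKO 2. In cKO 1, 5 were higher and 5 lower beyond counting error, where 15% and 14% of all genes were. In cKO 2, 6 were higher and 8 lower, where 13.5% and 21.1% of all genes were. These shares were not tested, and nothing particular to neuronal members is read from them. Their summed level was 911 CPM in cKO 1, 947 in cKO 2 and 961 in floxed. The ratio of the sums to floxed was 0.948 (0.928 to 0.968) in cKO 1 and 0.985 (0.965 to 1.006) in cKO 2. Markers of neurons in general (10 of 10 listed) summed to 6948, 7344 and 7303 CPM.

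Kcnq3 (ENSMUSG00000056258, GRCm38 chromosome 15, 65986387 to 66286224, minus strand) is a pore subunit of the M-current, which restrains repetitive firing in neurons. It had 86.2 CPM in cKO 1, 85.2 in cKO 2 and 87.3 in floxed, with no library apart, and its ratios of 0.987 (0.921 to 1.06) and 0.976 (0.910 to 1.05) stayed within counting error.

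Higher in the cKO libraries were several Kv subunits. Kcnv1, a silent subunit that slows Kv2 channels (ENSMUSG00000022342, chromosome 15, 45106284 to 45114934, minus strand), had 12.9 CPM in cKO 1, 11.9 in cKO 2 and 8.80 in floxed. Kcnb2, a Kv2 delayed rectifier pore, had 10.5, 12.001 and 7.85 CPM. In these genes the cKO values lay together above floxed, by ratios of 1.47 (1.20 to 1.80) and 1.36 (1.10 to 1.68) for Kcnv1 and of 1.34 (1.07 to 1.67) and 1.53 (1.23 to 1.90) for Kcnb2. Kcnv1, Kcnb2, Kcna4 and Kcna6, and below Kcnc2, Kcnf1, Kcnh8, Kcnj11 and Kcnab3, are among the 10 members with the smallest edgeR p. That rule favours genes whose cKO values lie together and apart from floxed, so nothing further is read from this pattern. Kcna4, a fast-inactivating Kv1 pore of axons (chromosome 2, 107290639 to 107298502, plus strand), had 2.15 CPM in cKO 1, 2.53 in cKO 2 and 1.18 in floxed, on 42, 47 and 21 counts. edgeR fitted a log2 fold of 1.01 for Kcna4 (SE 0.50, adjusted p = 1), beside 0.51 (SE 0.25) for Kcnv1 and 0.54 (SE 0.28) for Kcnb2, each also with an edgeR adjusted p of 1. Kcna6, a Kv1 pore, had 36.5, 33.2 and 29.7 CPM, higher beyond counting error in cKO 1 (1.23, 1.10 to 1.38) but within it in cKO 2 (1.12, 0.994 to 1.26), where TMM scaling moved it past. Part of Kcna6 is shared with an antisense gene as given above.

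Other neuronal pores were lower. Kcnc2, a Kv3 pore that lets interneurons fire fast, had 4.66 CPM in cKO 1, 4.14 in cKO 2 and 6.67 in floxed. Kcnf1, a silent subunit, had 6.56, 6.19 and 9.25 CPM. Both genes had cKO values below floxed with no overlap, at fitted log2 folds of -0.58 (SE 0.32) for Kcnc2 and -0.52 (SE 0.28) for Kcnf1 (edgeR adjusted p = 1 for each). Kcnc1, an abundant Kv3 pore, had 59.3, 60.5 and 63.9 CPM and was within counting error of floxed in both cKO libraries. Markers of the ganglionic eminences and interneurons (8 of 8 listed, Dlx1, Gad1, Lhx6 and Sst among them) summed to 581, 577 and 661 CPM. Not each marker followed the sum. Beyond counting error, 4 of the 8 were lower than floxed in cKO 1 and 0 higher. In cKO 2, 5 were lower and 2 higher, Sst among the higher (1.24, 1.16 to 1.32). The part of these cells in the Kcnc2 values was not tested.

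Kv4 channels carry the A-type current that delays spikes in dendrites, and their pores and calcium-sensing partners were among the abundant members. Kcnd3, a Kv4 pore, had 36.4 CPM in cKO 1, 32.4 in cKO 2 and 32.8 in floxed, within counting error of floxed in each library. Kcnd2, the other neuronal Kv4 pore and chosen after its values were seen, had 16.9, 14.7 and 12.7 CPM and was higher in cKO 1 (ratio 1.32, 1.12 to 1.58). Kcnip1 had 34.4, 33.5 and 35.6 CPM, with no library apart. Kcnip3 had 57.1, 67.8 and 56.3 CPM, and cKO 2 was above the others (1.20 over floxed, 1.11 to 1.31). Kcnip4, a partner that removes fast inactivation, had 4.25, 2.53 and 3.87 CPM, and cKO 2 was below the others.

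The EAG, ERG and ELK genes (Kcnh) summed to 95.2 CPM in cKO 1, 103 in cKO 2 and 115 in floxed. Beyond counting error, 4 of 8 were lower than floxed in cKO 1 (14% of all genes were) and 6 of 8 in cKO 2 (21.1% of all genes), and 0 were higher. The family was not tested as a set. Kcnh8, an ELK pore (chromosome 17, 52602709 to 52979194, plus strand), had 2.72 CPM in cKO 1, 2.21 in cKO 2 and 4.26 in floxed. The ratios were 0.637 (0.440 to 0.917) and 0.518 (0.345 to 0.767), with a fitted log2 fold of -0.77 (SE 0.39, edgeR adjusted p = 1). Kcnh1, an EAG pore of neurons, had 6.66, 3.34 and 5.89 CPM, so cKO 2 alone was low (ratio to cKO 1 0.501, 0.364 to 0.683). Kcnh6, an ERG pore, had 0.973, 0.484 and 1.29 CPM on 19, 9 and 23 counts. Kcnh2, the ERG pore also known from the heart and chosen after its values were seen, had 23.4, 25.5 and 29.8 CPM, with ratios of 0.784 (0.690 to 0.890) and 0.855 (0.754 to 0.970).

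Glial members were few. Kcnj10, the Kir4.1 pore through which astroglia and their precursors take up potassium, had 17.6 CPM in cKO 1, 15.7 in cKO 2 and 19.8 in floxed. Kcnk1, a 2-pore-domain channel of astroglia, had 8.81, 7.21 and 9.70 CPM. Floxed was highest for both, and cKO 2 was below it beyond counting error (Kcnj10 0.794, 0.678 to 0.930, and Kcnk1 0.744, 0.589 to 0.937), while cKO 1 was not. Kcnj16, which pairs with Kir4.1, had 2, 3 and 6 counts and was at the limit of detection. The summed radial glia markers (10 of 10 listed) stood the other way round, though not each marker, at 2608 CPM in cKO 1, 2507 in cKO 2 and 1948 in floxed. Vim, the most abundant of these markers, had 858, 874 and 572 CPM and so weighs heavily in the sum. Beyond counting error, 6 of the 10 markers were higher than floxed in cKO 1 and 0 lower, and in cKO 2, 7 were higher and 1 lower. The rest were within counting error of floxed.

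Vascular members separated the cKO libraries. Kcnj8, the Kir6.1 pore of the ATP-sensitive channel of pericytes and smooth muscle (ENSMUSG00000030247, chromosome 6, 142564837 to 142571614, minus strand), stood at 14.96 CPM in cKO 1, 8.50 in cKO 2 and 12.1 in floxed, from 292, 158 and 216 counts. The floxed value lay between the cKO values, with ratios of 1.24 (1.03 to 1.48) and 0.702 (0.568 to 0.866). The cKO mean of 11.7 ± 4.57 CPM (SD, n = 2) therefore hides opposite differences, and cKO 2 over cKO 1 was 0.568 (0.465 to 0.692). Kcnj2, the Kir2.1 pore of endothelium and smooth muscle, had 4.56, 2.80 and 5.10 CPM. Kcne4, a beta subunit of vascular smooth muscle, had 0.564, 0.108 and 0.953 CPM, on 11, 2 and 17 counts. For both, cKO 2 was low and cKO 1 was within counting error of floxed. Kcna5, a Kv1 pore of smooth muscle, had 2.36, 1.83 and 1.79 CPM and differed in no comparison.

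The order cKO 1, floxed, cKO 2 of Kcnj8 was also that of the summed vessel markers, though not of each marker. Pericyte and smooth muscle markers (10 of 10 listed) summed to 319 CPM in cKO 1, 143 in cKO 2 and 261 in floxed. All 10 were lower than floxed in cKO 2, 9 of them beyond counting error. Tagln was highest in floxed, at 6 counts against 3 in cKO 1 and 0 in cKO 2, and Acta2 had 248, 3 and 173 counts in cKO 1, cKO 2 and floxed. Endothelial markers (10 of 10 listed) summed to 366, 175 and 304 CPM, with all 10 lower than floxed in cKO 2 and none at 0. The part of the vessel cell content in the Kcnj8, Kcnj2 and Kcne4 values was not tested. In bulk RNA, fewer cells of a type and less RNA per cell cannot be told apart.

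The gene for the regulatory subunit that assembles with Kir6.1, Abcc9, lies 16.2 kb from Kcnj8 on chromosome 6. It had 15.9 CPM in cKO 1, 9.09 in cKO 2 and 14.8 in floxed, and its ratio of cKO 2 to cKO 1 was 0.571 (0.470 to 0.691) beside 0.568 for Kcnj8. Counts of Kcnj8 per count of Abcc9 were 0.939, 0.935 and 0.818. The neighbour on the other side, Ldhb, had 225, 229 and 227 CPM, with no library apart.

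The matching pair of neurons and endocrine cells was Kcnj11 and Abcc8, which lie 3.76 kb apart on chromosome 7. Kcnj11 (ENSMUSG00000096146, 46093953 to 46100764, minus strand) had 69.6 CPM in cKO 1, 72.01 in cKO 2 and 61.5 in floxed. The cKO values lay together above floxed, at ratios of 1.13 (1.05 to 1.23) and 1.17 (1.08 to 1.27), with a fitted log2 fold of 0.22 (SE 0.13, edgeR adjusted p = 1). Abcc8, the sulfonylurea receptor of this channel, had 97.2, 116 and 81.0 CPM, at ratios of 1.20 (1.12 to 1.28) and 1.43 (1.34 to 1.53). Nomo1, on the far side of Kcnj11, had 105, 108 and 110 CPM. So Kcnj8 and Abcc9 were lowest in cKO 2, while Kcnj11 and Abcc8 were lowest in floxed.

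**Figure D3:**
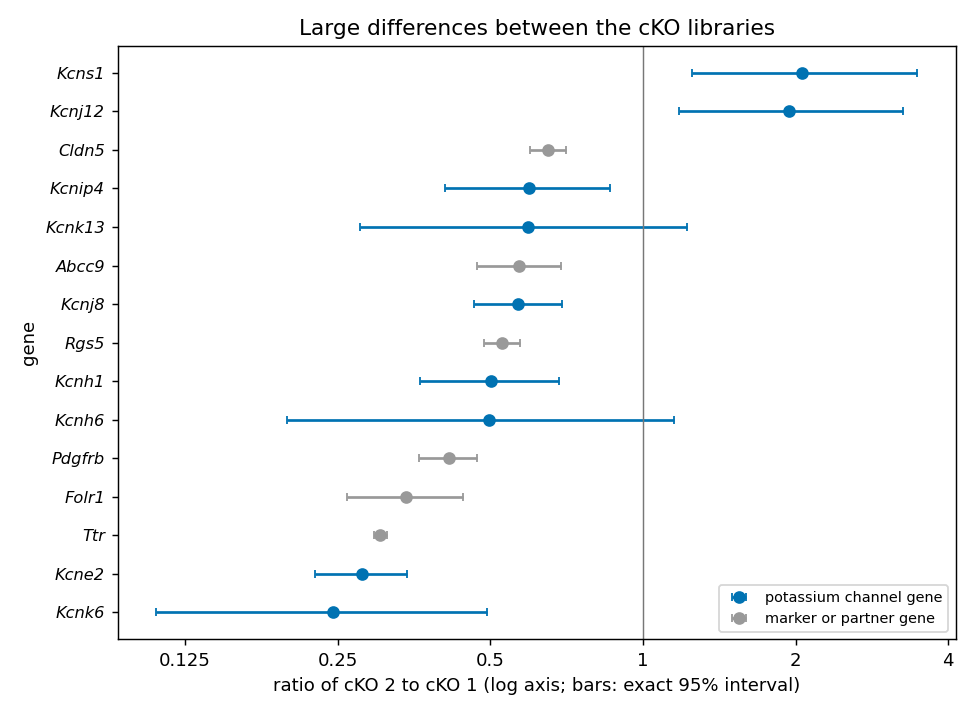
Ratio of cKO 2 to cKO 1 on a log axis for 9 potassium channel genes and 6 marker or partner genes. Bars are exact 95% intervals of counting error. The 9 were taken by size of ratio in either direction, among members with at least 50 counts. The intervals of Kcnh6 (0.498, 0.198 to 1.15) and Kcnk13 (0.594, 0.276 to 1.22) include 1. Kcnj8 (0.568) sits beside Abcc9 (0.571), and Kcne2 (0.279) beside the choroid plexus marker Ttr (0.304).

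Among choroid plexus members, Kcne2 carried nearly all the counts. It encodes a beta subunit that joins the KCNQ1 pore in the epithelium that makes cerebrospinal fluid (ENSMUSG00000039672, chromosome 16, 92292389 to 92298129, plus strand). Its level was 22.6 CPM in cKO 1, 6.30 in cKO 2 and 23.3 in floxed, from 441, 117 and 416 counts. Its printed promoter has 9 CG pairs, as that of Kcnj8 has. Only cKO 2 was low, at 0.270 of floxed (0.218 to 0.332) and 0.279 of cKO 1 (0.225 to 0.342), and cKO 1 was within counting error of floxed. Kcnq1 had 1.79, 1.18 and 1.40 CPM and differed in no comparison beyond counting error. Kcnj13, the Kir7.1 pore of the same epithelium, had 8, 4 and 8 counts, of which those in the overlap with Gigyf2 may not be its own. Choroid plexus markers (10 of 10 listed) summed to 1125 CPM in cKO 1, 340 in cKO 2 and 1132 in floxed, 9 of 10 were lower than floxed in cKO 2, and none was at 0. Ttr, a carrier protein that the choroid plexus secretes, had 972, 295 and 996 CPM, and counts of Kcne2 per count of Ttr were 0.0232, 0.0213 and 0.0234. The part of choroid plexus content in the Kcne2 value was not tested. The next gene, Smim11, 3.16 kb away, had 19.9, 23.7 and 18.9 CPM.

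Immune and blood members had few counts in every library. Kcnk13, a 2-pore-domain channel of microglia, was read 23 times in cKO 1, 13 times in cKO 2 and 16 times in floxed. Kcna3, the Kv1.3 pore of lymphocytes and microglia, had 4, 7 and 2 counts, and Kcnn4, a calcium-activated channel of red cells and immune cells, had 5, 12 and 6. None differed beyond counting error in any comparison. Microglia and macrophage markers (9 of 9 listed) summed to 145, 57.9 and 111 CPM, and erythroid markers (7 of 7 listed) to 1571, 1268 and 1736 CPM.

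No single role was given to 28 members. Kcnj12 (a Kir2 pore) had 1.33 CPM in cKO 1, 2.58 in cKO 2 and 2.41 in floxed, and was low in cKO 1. Kcns1, a silent subunit of the neuronal class, had 1.28, 2.64 and 1.74 CPM, with cKO 2 at 2.06 times cKO 1 (1.25 to 3.48). Kcnk6, a 2-pore-domain gene, had 2.203, 0.538 and 2.58 CPM on 43, 10 and 46 counts. Low in cKO 2 alone, it stood at 0.244 of cKO 1 (0.109 to 0.494). Its neighbours Catsperg1 (2.15, 1.29 and 2.30 CPM) and Yif1b (23.8, 32.5 and 23.8 CPM) differed from each other in direction.

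The 2-pore-domain genes Kcnk2 and Kcnk10 encode TREK channels that respond to stretch and lipids. Kcnk10 had 46.0 CPM in cKO 1, 46.4 in cKO 2 and 45.1 in floxed, with no library apart. Kcnk2 had 41.0, 32.2 and 42.6 CPM, with cKO 2 low at 0.756 of floxed (0.678 to 0.842). Kcng1 had 40.8, 45.3 and 41.1 CPM, within counting error of floxed, although TMM scaling moved cKO 2 past it. Kcnab3, a beta subunit of Kv1 channels, had 9.48, 10.2 and 13.2 CPM, with a fitted log2 fold of -0.40 (SE 0.25, edgeR adjusted p = 1).

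**Figure D4:**
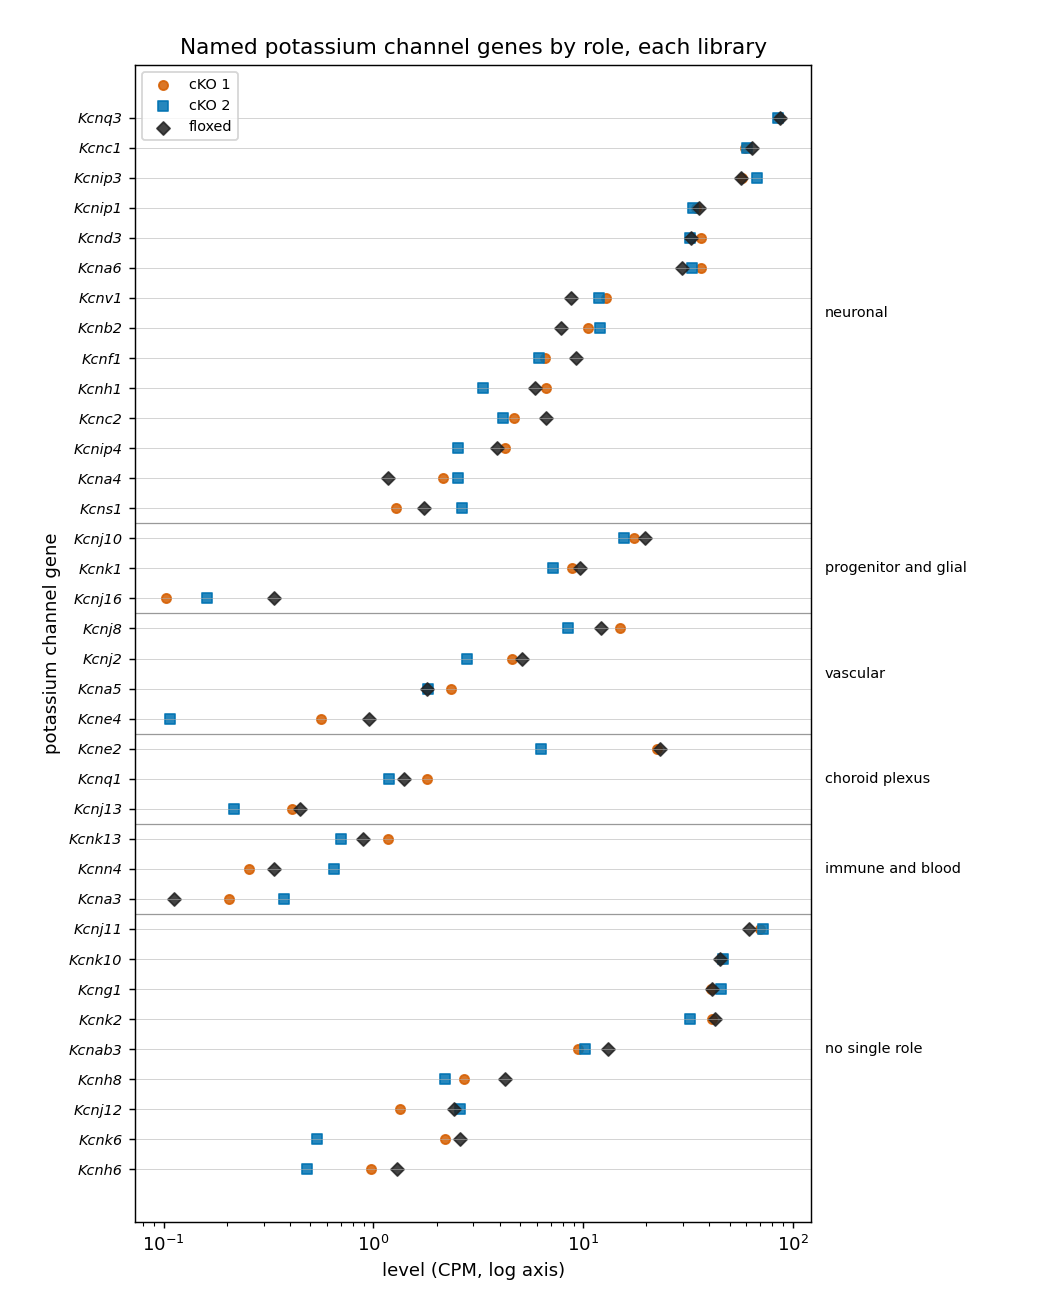
Level (CPM, log axis) of 36 potassium channel genes in cKO 1, cKO 2 and floxed, grouped by role, with 1 point for each library. The abundant neuronal genes have 3 nearly coinciding points, while Kcne2, Kcne4 and Kcnk6 have cKO 2 far to the left. Kcnh6, Kcnh1, Kcnj8 and Kcnj2, among others, have cKO 2 to the left by less.

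By size of difference, few members passed 2-fold. In cKO 1 over floxed 1 member was higher and 3 lower by more than that (4.69% and 5.83% of all genes), each on 2 to 19 counts in cKO 1. In cKO 2 over floxed 2 were higher and 8 lower (3.64% and 11.9% of all genes), and of these 10 Kcne2 had the most counts. In cKO 2 over cKO 1, 3 were higher and 6 lower (4.82% and 11.2% of all genes). In the authors' deposited table for cKO 2, 1 member was marked significant and higher, Kcna4 (log2 fold 1.10, adjusted p = 0.00776), beside 1.04% of all genes. Marked lower there were 5, beside 5.8% of all genes: Kcne2 (log2 fold -1.89, adjusted p = 4.46e-41), Kcnk6 (-2.26, 2.31e-06), Kcne4 (-3.15, 0.00089), Kcnh5 (-1.82, 0.0177) and Kcnh6 (-1.41, 0.022). In the authors' deposited table for cKO 1, 0 members were marked, beside 1.31% of all genes marked higher and 0.942% marked lower. Those p-values compare 1 library with 1 library.

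Partner proteins outside the Kcn genes were followed with a list of 17, of which 14 were in both tables. Beyond counting error 3 were higher and 5 lower in cKO 1, where 15% and 14% of all genes were. In cKO 2, 3 were higher and 4 lower, where 13.5% and 21.1% of all genes were, and nothing particular to the partners is read from these counts. Hcn genes encode the pacemaker channels related to Kv pores. Hcn4 had 47.3 CPM in cKO 1, 46.5 in cKO 2 and 57.9 in floxed, with both cKO values below floxed. The other listed Hcn genes did not all go this way. Dpp6, which escorts Kv4 channels, had 61.5, 73.2 and 77.2 CPM, and Dpp10, of the same kind, had 13.6, 15.98 and 14.0 CPM. Lrrc55, a gamma subunit of the large-conductance calcium-activated channel, had 20.8, 22.2 and 17.7 CPM, while Kcnma1, the pore of that channel and chosen after its values were seen, had 2.61, 1.72 and 2.75 CPM.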

How the data were processed

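RNA sequencing counts per gene came from 2 tables that the authors deposited, each with 1 cKO library and the same floxed library, which held identical counts for all 19968 shared genes. Bowtie2 2.2.3, TopHat2 2.0.12, HTSeq 0.6.0 and mm9 are named, with no roles, per the submitters' processing notes. Positions in the tables match GRCm38: all 83 members were in GENCODE M21 and 70 had the identical span. The sources used here do not say how HTSeq was set. The deposited normalized values are CPM, in which the authors divided counts by a library total and set 0 to 0.5, as read from the values. The authors' fold is the ratio of these CPM values, their log2 fold its logarithm, and their p-values compare 1 library with 1 library by an unnamed test.

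Columns were assigned to groups by KO or WT in their names, and since no label says whether each library is its own animal, the p-values reflect spread between libraries that may be technical. CPM and ratios used the library totals implied by the deposited CPM. For the group test, edgeR 4.0.16 (R 4.3.3) was run on the deposited counts (minimum count 10, TMM factors 1.01, 0.978 and 1.01, quasi-likelihood test, Benjamini-Hochberg adjustment over 16725 genes). The fitted common dispersion gave a biological coefficient of variation of 0.218. The SE is the fold divided by the square root of F. The fit was checked on simulated data. DESeq2 1.42.0 and limma-voom (limma 3.58.1) were alternatives.

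The members and the lists of roles, partners and markers were chosen with earlier results of these data known. Named were all listed glial, vascular, choroid plexus and immune members, the 12 most abundant, the 10 with the smallest edgeR p and the 10 with the largest cKO 2 to cKO 1 ratio in either direction among those with at least 50 counts. The second sample labelled floxed was not analysed here. Some genes that this rule or the lists hold are not reported here singly, though counts and sums over members and lists include them.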

Additional observations from a re-analysis of the deposited data

How the results depend on the processing

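No member passed edgeR's adjusted threshold with library totals or DESeq2 size factors in place of TMM, without the filter on low counts, with limma-voom or with DESeq2 (0 members in each). Counts beyond counting error stayed within 1.5 times under TMM, DESeq2 size factors and a minimum of 10 counts. With 0.5 CPM added, the choroid plexus median log2 ratio of cKO 2 over cKO 1 went from -0.93 to -0.45, and with filtered members alone to -1.22, while the immune median of the cKO libraries over floxed went from 0.67 to 0.15. TMM moved the cKO 2 over cKO 1 medians from 0.04 to 0.088 for neuronal members, from 0.06 to 0.11 for unassigned members and from 0.02 to 0.071 for all members. The filtered sets hold fewer genes and low genes weigh less after an addition. For the rest the cause was not tested.

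Leaving out 1 cKO library leaves 1 library against 1 and no test. The medians over floxed then ran from -0.69 to 0.07 for vascular, -1.06 to -0.05 for choroid plexus, -0.43 to -0.17 for glial, 0.39 to 0.94 for immune, -0.06 to 0.06 for neuronal, -0.23 to -0.05 for unassigned and -0.07 to -0.03 for all members. Below 0 for vascular members without cKO 1, the median was above 0 without cKO 2. No paired analysis was possible because the columns carry no replicate number that links the groups and floxed has 1 library. Depth limits members of a few counts, such as Kcnj16 and Kcna3.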
